A study of Mus musculus with 6 samples.

Results

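The genes described here encode the machinery that loads, docks, primes, fuses and retrieves synaptic vesicles at nerve terminals. They are 46 genes, listed by name for their presynaptic roles, and all 46 were found by symbol among the 32371 genes of the count table. Of these, 6 encode forms typical of conventional synapses (Stx1a, Syn1, Syn2, Syn3, Cplx1 and Cplx2), 4 encode forms typical of the ribbon synapses of the retina (Stx3, Cplx3, Cplx4 and Slc17a7), and the remaining 36 belong to neither class. The classes follow known protein distributions, although they were drawn up with earlier results of these libraries known.

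A vesicle fuses when SNARE proteins on the vesicle and on the plasma membrane zip together. Complexins hold the assembled SNAREs, synaptotagmins trigger fusion when calcium enters, and large scaffold proteins of the active zone set the release sites. In the retina, photoreceptors and bipolar cells release glutamate at ribbon synapses, which lack synapsins and use syntaxin 3 and complexins 3 and 4. Amacrine cells and the brain terminals of RGCs form conventional synapses, which use syntaxin 1, synapsins and complexins 1 and 2.

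The 6 RNA-Seq libraries came from mice given an intravitreal injection of either AAV2-GFP (3 libraries) or AAV2-Ezh2-Y726D (3 libraries), which carries a catalytically dead form of the histone methyltransferase Ezh2. All mice were adult C57BL/6J of both sexes, and all received the optic nerve crush (ONC) 2 weeks after the virus, with cells collected 3 days after the ONC. Live CD90.2-positive cells of dissociated retinas were sorted to enrich RGCs, so both groups share the vector, the injury and the sort. AAV2 given this way can transduce retinal cells other than RGCs, and neither the labels nor the methods in the main text say whether retinas were pooled or whether libraries came from separate animals, so P values measure the spread between these libraries, which may be technical.

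Total counts ran from 9333244 to 23782520 per library. One rRNA gene, CT010467.1, took 2.55% to 16.1% of the counts in 4 libraries but 50.9% and 52.2% in GFP replicates 2 and 3, whose remaining counts were 5745352 and 4460732. The Ezh2 gene averaged 24.3 CPM (edgeR's depth-scaled counts with TMM factors) with GFP and 65.3 CPM with Ezh2-Y726D. Its log2 fold change was 1.46 (adjusted P = 3.01e-16, edgeR), and these counts were not separated into vector and endogenous transcripts. The sort did not yield RGCs alone. In the GFP libraries the 12 RGC markers summed to 475 to 491 CPM, whereas the 11 rod markers summed to 6262 to 6491 CPM and the 10 Müller glia markers to 12800 to 13470 CPM, sums that are not corrected for gene length. The members together took 0.466% to 1.07% of all counts, and each of the 46 passed the filter on low counts.

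Release machinery genes were mostly higher after Ezh2-Y726D overexpression. Syt2 and the ribbon forms Stx3, Cplx4 and Slc17a7 were lower. These 3 ribbon forms changed sign when libraries were scaled by totals that include the rRNA gene CT010467.1, but not by totals without it. In edgeR's quasi-likelihood test (Benjamini-Hochberg adjusted P under 0.05 over 18138 genes), 32 of the 46 members were higher with Ezh2-Y726D, against 13.9% of all genes tested. A further 4 were lower, against 13.6% of all genes, and 10 did not pass, where 27.5% of all genes passed in either direction. The changes were small, from -0.50 to 0.61 on the log2 scale with a median of 0.28 beside 0.00 for all genes tested. Only Syn2 reached the threshold of a DEG, which also asks for a fold change over 1.5 and was met by 8.02% of all genes. When single libraries were left out, its log2 fold change ran from 0.55 to 0.77, and those of Cplx1 and Rab3c reached 0.60 and 0.59. Which members pass this threshold thus depends on single libraries. In 33 members every Ezh2-Y726D library lay above every GFP library (19.7% of all genes), and in 6 every one lay below (18.9% of all genes). With 3 libraries against 3, an exact permutation test of a single gene cannot go below 0.1, so none is given. In bulk samples such as these, fewer cells of a type and less RNA per cell cannot be told apart.

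All directions are relative to TMM scaling. When libraries were scaled by their totals alone, rRNA gene included, the median over all genes tested moved to 0.49. On that scale no member passed the test in either direction (lowest adjusted P 0.214 with edgeR), and 24 of the 32 members that had been higher kept an unadjusted P under 0.05. Such a scaling shifts all genes by about the same amount, so it bears on the sign and the test of a change and not on the position of a member relative to the median gene. With totals that left out CT010467.1 and nothing else, the median over all genes tested was -0.02, and 31 members were higher and 5 lower. There Stx3 (-0.22, adjusted P = 0.000205), Cplx4 (-0.23, adjusted P = 0.000874) and Slc17a7 (-0.28, adjusted P = 1.01e-05, edgeR) were again lower. Below, library totals means those that include the rRNA gene. Over all genes tested, that scaling called 46 higher and 19 lower.

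**Figure D1:**
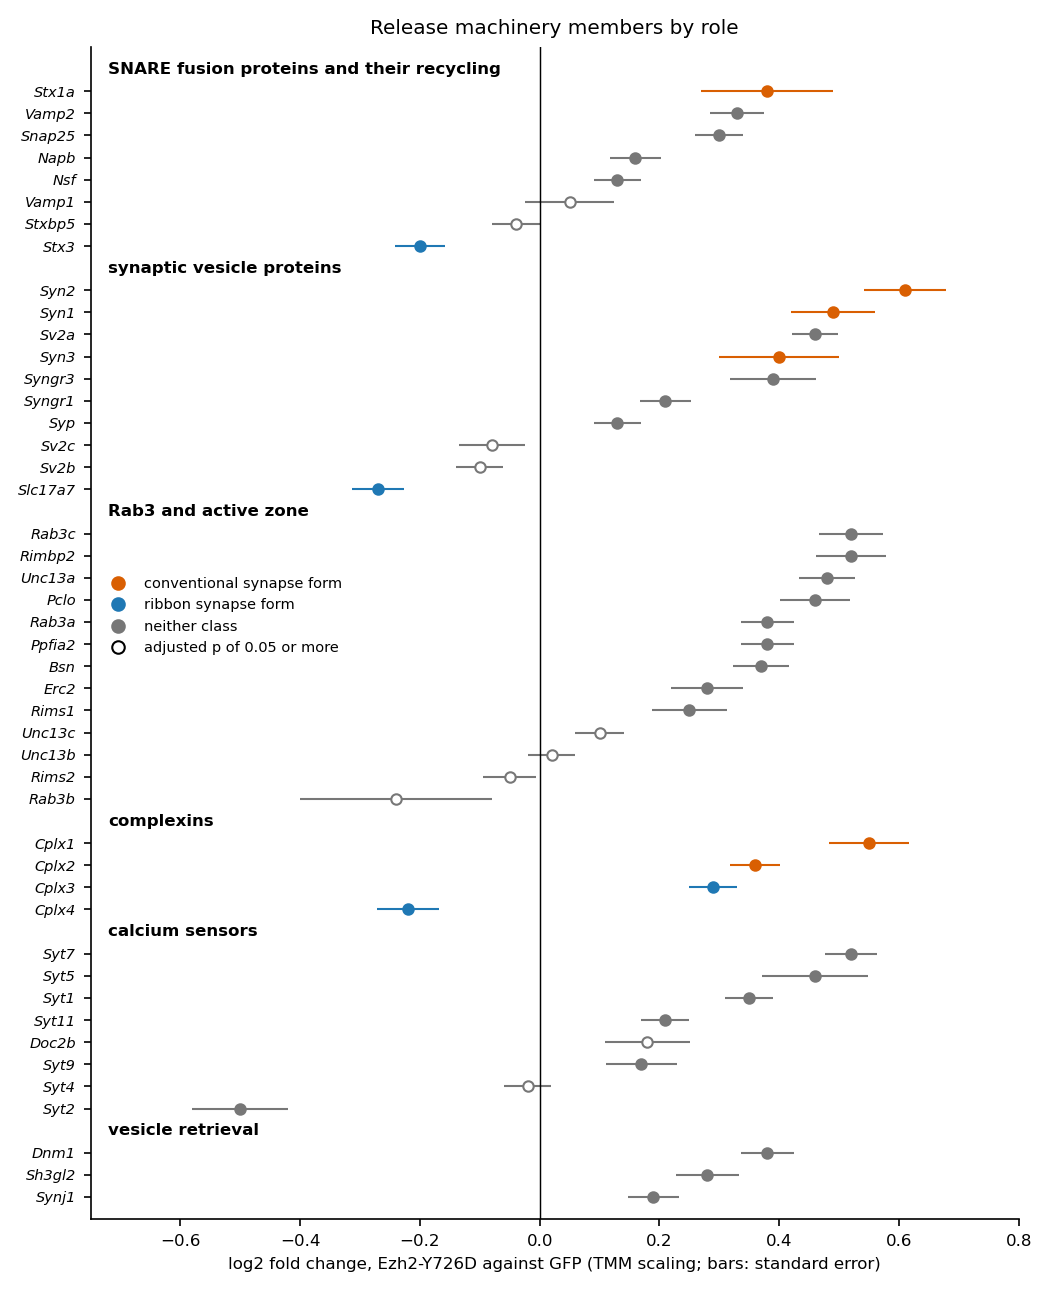
Log2 fold change of each of the 46 members between the 3 Ezh2-Y726D and the 3 GFP libraries under TMM scaling, ordered by role, with bars for the standard error and open symbols for members that did not pass the test. The 6 conventional members lie between 0.36 and 0.61 and 3 of the 4 ribbon members between -0.27 and -0.20. For these 3 ribbon members the sign turns positive under library totals that include the rRNA gene CT010467.1, and stays negative under totals without it.

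Reference promoters are shown for the highest expressed synapsin, for Cplx1 and for the ribbon genes Stx3 and Slc17a7, as examples of members that moved in opposite directions, and CpG-rich promoters are typical targets of the Polycomb complex that holds Ezh2. Each window covers 250 bases before to 50 bases after the transcription start as RefSeq places it on GRCm38.p6, and capitals mark CpG dinucleotides. The windows are chrX:20920869-20921168 for Syn1 (minus strand), chr5:108549978-108550277 for Cplx1 (minus strand), chr19:11819354-11819653 for Stx3 (minus strand) and chr7:45163671-45163970 for Slc17a7 (plus strand).
Syn1: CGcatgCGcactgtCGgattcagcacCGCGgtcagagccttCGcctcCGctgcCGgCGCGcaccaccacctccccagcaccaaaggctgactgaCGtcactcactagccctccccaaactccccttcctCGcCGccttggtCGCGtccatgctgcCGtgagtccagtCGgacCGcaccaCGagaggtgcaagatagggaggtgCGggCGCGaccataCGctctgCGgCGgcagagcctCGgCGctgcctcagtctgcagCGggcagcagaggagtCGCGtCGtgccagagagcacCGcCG
Cplx1: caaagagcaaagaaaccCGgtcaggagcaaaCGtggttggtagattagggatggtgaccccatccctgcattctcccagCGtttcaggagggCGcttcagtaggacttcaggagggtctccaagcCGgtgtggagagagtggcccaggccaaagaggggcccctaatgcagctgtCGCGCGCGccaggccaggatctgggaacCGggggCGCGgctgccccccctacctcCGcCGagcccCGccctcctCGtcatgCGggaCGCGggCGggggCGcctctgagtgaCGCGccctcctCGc
Stx3: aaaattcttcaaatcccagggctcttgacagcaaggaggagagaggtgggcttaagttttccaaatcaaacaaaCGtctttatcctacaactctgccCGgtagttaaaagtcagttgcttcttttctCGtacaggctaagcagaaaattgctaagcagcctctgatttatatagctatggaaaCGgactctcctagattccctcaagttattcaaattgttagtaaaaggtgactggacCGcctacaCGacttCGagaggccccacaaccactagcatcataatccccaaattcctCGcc
Slc17a7: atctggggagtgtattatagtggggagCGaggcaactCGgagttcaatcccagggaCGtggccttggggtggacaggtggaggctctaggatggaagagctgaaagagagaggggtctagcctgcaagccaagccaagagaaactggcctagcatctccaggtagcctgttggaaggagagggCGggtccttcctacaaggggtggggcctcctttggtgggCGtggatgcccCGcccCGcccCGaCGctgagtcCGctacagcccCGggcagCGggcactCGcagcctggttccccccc

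The Syn1 window holds 33 CpGs and the Cplx1 window 24, whereas the Stx3 window holds 8 and the Slc17a7 window 13. Across the members, 36 had at least 1 window, and their 44 windows held 0 to 49 CpGs with a median of 19.5. The median over all 32851 windows of the table was 7, with quartiles of 3 and 20. The 6 windows of conventional members ranged from 5 to 33 CpGs and the 3 of ribbon members from 8 to 13, so the classes overlapped. Whether the count went with the direction of change was not tested. Among the lower members, Stx3 and Slc17a7 have the windows given above, Syt2 has windows of 34 and 28 CpGs, and Cplx4 has none. Windows of the higher members ran from 5 CpGs (Syn2) to 49 (Syt9). The palindromic cAMP response element TGACGTCA occurred in 2 member windows (4.55%, beside 1.79% of all windows), those of Syn1 and Sh3gl2. In the Syn1 window it begins 159 bases before the start. The letters TAATCC, the core of the photoreceptor and bipolar factors CRX and OTX2, were searched on both strands and occurred in 5 member windows of 4 genes (11.4%, beside 7.06% of all windows). These genes were Stx3, Sv2b, Ppfia2 and Syp, and in Stx3 the match begins at base 31 of the transcript. Such matches describe the letters only.

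Among the SNARE proteins and the factors that recycle them, 5 of 8 members were higher, 1 was lower and 2 did not pass. Their median log2 fold change was 0.15. The background for this role and those below is the 18138 tested genes, with 13.9% called upward and 13.6% downward. Against it, 62.5% of the SNARE role was higher. A single lower call among 8 members (12.5%) or 10 members (10%) did not exceed the background. Snap25 (ENSMUSG00000027273, chromosome 2, 136713453 to 136782428 on GRCm38), the plasma membrane SNARE that ribbon and conventional synapses share, stood at 434, 469.9 and 449 CPM with GFP and at 537, 560.1 and 565 CPM with Ezh2-Y726D, replicates 1 to 3 in each case. The groups did not overlap, and the log2 fold change was 0.30 (SE 0.04, adjusted P = 1.2e-06, edgeR). Vamp2 (chromosome 11, 69088490 to 69092384), the main vesicle SNARE, measured 114, 121 and 123 CPM with GFP and 141, 155 and 151 CPM with Ezh2-Y726D. It was higher in every Ezh2-Y726D library, by 0.33 on the log2 scale (SE 0.045, adjusted P = 8.95e-07).

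The syntaxins of the conventional and the ribbon synapse moved in opposite directions. Stx1a (ENSMUSG00000007207, chromosome 5, 135023482 to 135051100), which pairs with Snap25 at conventional terminals, read 8.52, 10.6 and 9.12 CPM with GFP and 11.9, 12.8 and 10.9 CPM with Ezh2-Y726D. Its lowest Ezh2-Y726D library lay just above its highest GFP library. The log2 fold change of 0.38 (SE 0.11, adjusted P = 0.00716) lost its call without GFP replicate 1 (0.25, adjusted P = 0.237), with DESeq2 (adjusted P = 0.0814) and with counts thinned to the shallowest library (adjusted P = 0.0861). Stx3 (ENSMUSG00000041488, chromosome 19, 11775118 to 11819403), which takes the place of syntaxin 1 at ribbons, read 213, 221 and 227 CPM with GFP and 181, 197 and 196 CPM with Ezh2-Y726D. All Ezh2-Y726D libraries lay below all GFP libraries. The fall of Stx3 was -0.20 on the log2 scale (SE 0.042, adjusted P = 0.000539) and became 0.31 under library totals.

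Nsf, the ATPase that takes spent SNARE complexes apart, and Napb, its adaptor, rose by 0.13 and 0.16 on the log2 scale (adjusted P = 0.0123 and 0.00494). The call for Nsf was lost without GFP replicate 1 (adjusted P = 0.0636), without GFP replicate 2 (0.057) and without Ezh2-Y726D replicate 2 (0.0538). Vamp1, a second vesicle SNARE, had a log2 fold change of 0.05 (adjusted P = 0.691). Stxbp5, or tomosyn, which competes with vesicle SNAREs, had one of -0.04 (adjusted P = 0.555). In both genes the groups overlapped.

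Of the 10 proteins of the synaptic vesicle itself, 7 were higher, 1 was lower and 2 did not pass, with a median of 0.30. The synapsins, which tether reserve vesicles at conventional terminals and are missing from ribbon terminals, all rose. Syn1 (ENSMUSG00000037217, X chromosome, 20860511 to 20921004), whose CpG-rich window is printed above, measured 32.4, 33.7 and 35.8 CPM with GFP and 43.9, 52.9 and 44.4 CPM with Ezh2-Y726D. Syn2 (ENSMUSG00000009394, chromosome 6, 115134902 to 115282006) measured 30.2, 24.25 and 25.5 CPM with GFP and 43.9, 42.7 and 40.9 CPM with Ezh2-Y726D. For both genes the groups lay well apart, with log2 fold changes of 0.49 for Syn1 (SE 0.07, adjusted P = 3.08e-06) and 0.61 for Syn2 (SE 0.069, adjusted P = 5.22e-08), the highest among the 46 members. Syn3 (ENSMUSG00000059602, chromosome 10, 86055125 to 86498896) was far scarcer, at 8.45, 10.6 and 7.80 CPM with GFP and 11.6, 11.96 and 11.5 CPM with Ezh2-Y726D. GFP replicate 2 came close to the Ezh2-Y726D libraries, and the change of 0.40 (SE 0.1, adjusted P = 0.00361) lost its call without GFP replicate 1 (adjusted P = 0.117). Counts of Syn3 are less certain, as 14.1% of its exonic bases overlap Timp3, which lies within the gene.

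Slc17a7 (ENSMUSG00000070570, chromosome 7, 45163949 to 45176142), the vesicular glutamate transporter VGLUT1 of photoreceptors and bipolar cells, read 374, 330.5 and 368 CPM with GFP and 295, 294 and 304 CPM with Ezh2-Y726D. All Ezh2-Y726D libraries lay below the lowest GFP library. The log2 fold change was -0.27 (SE 0.044, adjusted P = 1.96e-05) and 0.23 under library totals. The transporter of RGC terminals, Slc17a6 (VGLUT2), is no member and averaged 80.6 CPM with GFP and 81.5 CPM with Ezh2-Y726D (log2 fold change 0.03, adjusted P = 0.714).

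Syp, or synaptophysin, a main vesicle membrane protein of both synapse kinds, stood at 393, 398 and 394 CPM with GFP and at 415.5, 452 and 432 CPM with Ezh2-Y726D. Its rise was the smallest of the vesicle proteins that passed, at 0.13 (SE 0.04, adjusted P = 0.0128), and its call was lost without Ezh2-Y726D replicate 2 (adjusted P = 0.117). Of its exonic bases, 16.8% overlap Gm14703. Of the 3 SV2 glycoproteins, which regulate vesicle priming, only Sv2a passed the test, and differences among the 3 were not tested. Sv2a rose from 338 ± 9.91 to 465 ± 6.99 CPM (mean ± SD, n = 3 libraries each), by 0.46 on the log2 scale (adjusted P = 3.35e-10). Sv2b, at 279.7 ± 7.29 and 261 ± 4.51 CPM, had a log2 fold change of -0.10 (adjusted P = 0.0602), and Sv2c had one of -0.08 (adjusted P = 0.302). In both, every Ezh2-Y726D library nonetheless lay below every GFP library. The synaptogyrins Syngr1 and Syngr3, vesicle proteins with 4 membrane spans, rose by 0.21 and 0.39 (adjusted P = 0.000304 and 0.000122).

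The group of Rab3 GTPases and active zone proteins held the highest median of the roles with more than 3 genes, 0.37, and none of its 13 members was called lower. In it, 9 members rose and 4 did not pass. Rab3c, a vesicle GTPase, read 90.3, 110.5 and 102 CPM with GFP and 135, 145 and 146 CPM with Ezh2-Y726D. Rimbp2, which links the scaffold to calcium channels, read 32.45, 33.4 and 29.5 CPM with GFP and 45.8, 46.85 and 45.75 CPM with Ezh2-Y726D. Both lay apart between groups, each with a log2 fold change of 0.52 (SE 0.054 and adjusted P = 1.13e-08 for Rab3c, SE 0.059 and adjusted P = 6.14e-08 for Rimbp2). Rab3a, the most abundant Rab3 form here, rose by 0.38 (adjusted P = 9.68e-08). Rab3b, the scarcest, at 4.57 ± 0.425 CPM with GFP and 3.89 ± 0.513 CPM with Ezh2-Y726D, had a log2 fold change of -0.24 (SE 0.16, adjusted P = 0.294), with overlapping groups.

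Bsn and Pclo encode Bassoon and Piccolo, the giant scaffolds of the active zone, and Bassoon also anchors the photoreceptor ribbon. Bsn (chromosome 9, 108096022 to 108190384) measured 84.65, 93.3 and 83.8 CPM with GFP and 108, 115 and 113 CPM with Ezh2-Y726D. Pclo (chromosome 5, 14514918 to 14863459) measured 109.9, 128.5 and 127.5 CPM with GFP and 148, 174 and 175 CPM with Ezh2-Y726D. Both were higher in all Ezh2-Y726D libraries, by 0.37 (SE 0.047, adjusted P = 3.61e-07) and 0.46 (SE 0.058, adjusted P = 3.52e-07). Ppfia2, a liprin that organises the active zone, rose by 0.38 (adjusted P = 8.07e-08), with 24.5% of its exonic bases overlapping Acss3. Erc2 rose by 0.28 (adjusted P = 0.000566), a call lost when counts were thinned (adjusted P = 0.0742).

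Of the priming factors and Rab effectors, Unc13a and Rims1 passed the test and Unc13b, Unc13c and Rims2 did not, and differences between these relatives were not tested. Unc13a, which encodes the priming factor Munc13-1 of conventional synapses, rose from 76.8 ± 5.78 to 108 ± 0.709 CPM (log2 fold change 0.48, adjusted P = 4.18e-09). Unc13b, the more abundant of the pair per kb of exon, measured 265 ± 3.00 CPM with GFP and 267 ± 7.76 CPM with Ezh2-Y726D and had a log2 fold change of 0.02 (adjusted P = 0.827). Unc13c lay higher in every Ezh2-Y726D library, yet its log2 fold change of 0.10 just missed the test (adjusted P = 0.0566). It passed without Ezh2-Y726D replicate 1 (adjusted P = 0.0406). Rims1, a scaffold that binds Rab3 and Munc13, rose by 0.25 (adjusted P = 0.00323), a call lost without GFP replicate 1 (adjusted P = 0.089) and with thinned counts (adjusted P = 0.0684). Its relative Rims2 had a log2 fold change of -0.05 (adjusted P = 0.48).

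Of the 4 complexins, Cplx1, Cplx2 and Cplx3 rose and Cplx4 fell, a fall that became 0.29 on the log2 scale under library totals. Cplx1 (ENSMUSG00000033615, chromosome 5, 108518554 to 108550024) read 23.7, 21.9 and 23.4 CPM with GFP and 35.1, 35.3 and 32.1 CPM with Ezh2-Y726D. Cplx2 (ENSMUSG00000025867, chromosome 13, 54371349 to 54383917), the more abundant conventional form, read 179, 193 and 174 CPM with GFP and 238, 234 and 231 CPM with Ezh2-Y726D. Neither gene overlapped between groups, with changes of 0.55 (SE 0.066, adjusted P = 1.44e-07) and 0.36 (SE 0.042, adjusted P = 6.37e-08).

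The ribbon complexins split. Cplx3 (ENSMUSG00000039714, chromosome 9, 57599992 to 57606281), which has also been found in amacrine cells, measured 269.9, 267 and 255 CPM with GFP and 329.8, 327 and 313 CPM with Ezh2-Y726D. Cplx4 (ENSMUSG00000024519, chromosome 18), a complexin of photoreceptor terminals, measured 100.2, 104 and 105 CPM with GFP and 81.6, 86.8 and 96.2 CPM with Ezh2-Y726D. Neither overlapped between groups, but Cplx3 rose by 0.29 (SE 0.04, adjusted P = 1.9e-06) and Cplx4 had a log2 fold change of -0.22 (SE 0.052, adjusted P = 0.0019). Cplx3 thus stood apart from the other 3 ribbon members, and Ezh2-Y726D replicate 3 of Cplx4 came nearest to the GFP level.

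**Figure D2:**
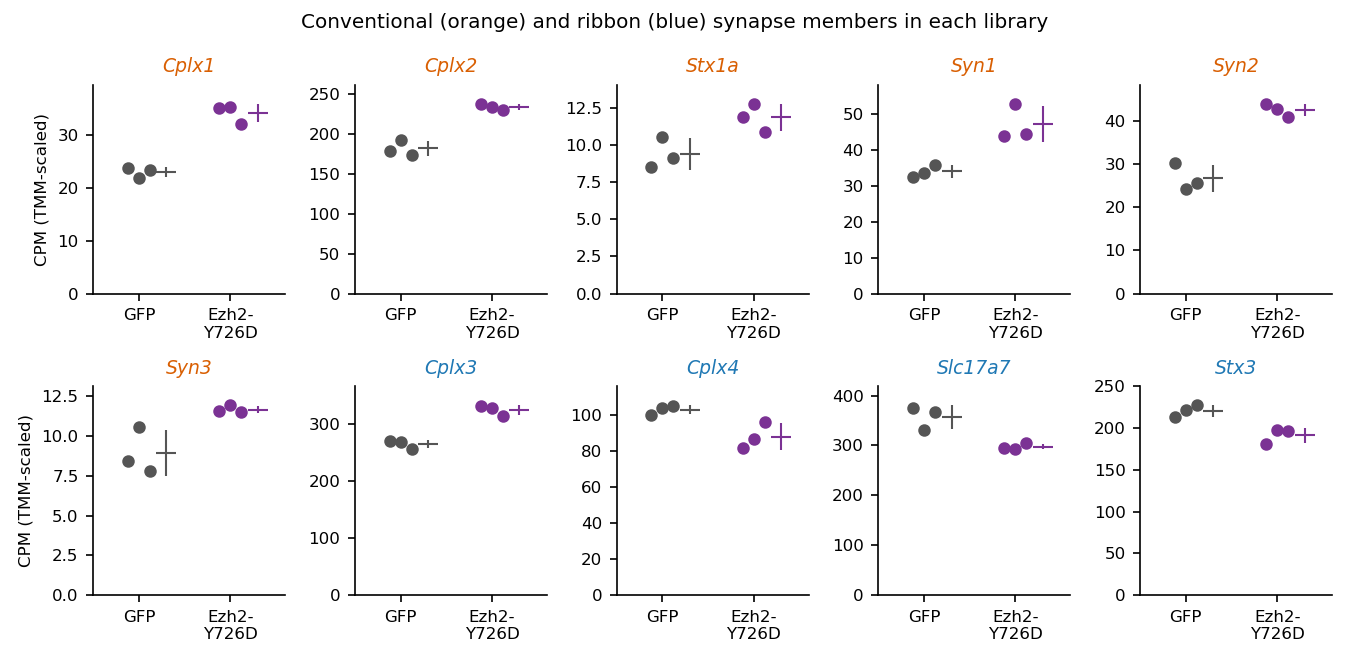
CPM of the 6 conventional members (orange titles) and the 4 ribbon members (blue titles) in each library, with GFP in grey and Ezh2-Y726D in purple, points for single libraries and a cross for the mean with a bar of 1 SD (n = 3). No gene overlaps between groups, and Cplx4, Slc17a7 and Stx3 are the members that are lower with Ezh2-Y726D under the TMM scaling shown. That direction turns under library totals that include the rRNA gene CT010467.1 and holds under totals without it.

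Of the 8 calcium sensors, 5 were higher, 1 was lower and 2 did not pass (median 0.19). Syt1 (ENSMUSG00000035864, chromosome 10, 108497650 to 109010982), the fast sensor of most central synapses, read 821, 852 and 800.1 CPM with GFP and 1005, 1076 and 1062 CPM with Ezh2-Y726D. It was the most abundant member, did not overlap between groups and rose by 0.35 (SE 0.04, adjusted P = 7.19e-08). Syt2 (ENSMUSG00000026452, chromosome 1, 134646677 to 134762593), a closely related fast sensor known in the retina from subsets of cone bipolar cells, read 26.8, 26.7 and 28.2 CPM with GFP and 21.2, 16.3 and 19.35 CPM with Ezh2-Y726D. Its change of -0.50 (SE 0.08, adjusted P = 1.31e-05) was the lowest of the 46 and was -0.01 under library totals.

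Syt7, a slow, high-affinity sensor, read 105.3, 105 and 97.7 CPM with GFP and 153, 147 and 144 CPM with Ezh2-Y726D, a change of 0.52 (SE 0.043, adjusted P = 2.05e-10) with no overlap. Syt5 rose by 0.46 (adjusted P = 0.00016), a call lost with thinned counts (adjusted P = 0.151), and Syt11, a form that binds calcium poorly, by 0.21 (adjusted P = 0.000169). Syt9, a further fast sensor, had a log2 fold change of 0.17 (adjusted P = 0.0388), but its groups overlapped. Its call was lost with DESeq2 (adjusted P = 0.108), without GFP replicate 1 (0.155) or 3 (0.135) and without Ezh2-Y726D replicate 1 (0.0848) or 2 (0.159). Syt4 (log2 fold change -0.02, adjusted P = 0.728, with 14.5% of exonic bases overlapping Gm26658) and Doc2b (0.18, adjusted P = 0.061) did not pass.

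All 3 genes of vesicle retrieval rose. Dnm1 (ENSMUSG00000026825, chromosome 2, 32308471 to 32353338), the neuronal dynamin that pinches off vesicles, read 230.2, 239 and 221 CPM with GFP and 291, 318 and 288 CPM with Ezh2-Y726D. The groups lay apart and the change was 0.38 (SE 0.044, adjusted P = 9.38e-08). Sh3gl2 (endophilin A1) and Synj1 (synaptojanin 1), which bend the membrane and strip the clathrin coat, rose by 0.28 (adjusted P = 0.000116) and 0.19 (adjusted P = 0.000581).

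Set side by side, all 6 conventional members were higher (median 0.45), whereas 3 ribbon members were lower and 1 higher (median -0.21, and 0.30 under library totals). The 36 members of neither class comprised 25 higher (69.4%), 1 lower (2.78%) and 10 that did not pass, with a median of 0.23. Upward calls made up 13.9% of the 18138 tested genes, and downward calls 13.6%. Summed CPM of the conventional members ran from 276 to 294 with GFP and from 371 to 389 with Ezh2-Y726D. That of the ribbon members ran from 924 to 957 with GFP and from 887 to 909 with Ezh2-Y726D, and in neither class did the sums overlap between groups. Sums over all 46 members were 7187 to 7395 CPM with GFP and 8189 to 8494 CPM with Ezh2-Y726D. None of the 10 class members overlapped between groups, 7 lying above and 3 below, beside 19.7% and 18.9% of all genes tested.

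Levels between genes can be compared only per length, here as CPM per kb of exon in the GFP libraries. Syt1 led with 98.9 ± 3.14, followed by Cplx3 with 89.5 ± 2.62, Syp with 75.8 ± 0.547, Sv2a with 72.9 ± 2.14 and Syt4 with 71.7 ± 1.38. The last 2 of these did not differ beyond their SD. Snap25 (66.4 ± 2.63) and Slc17a7 (66.3 ± 4.39) came next and were likewise within their SD of each other. Cplx4 reached 53.2 ± 1.35, Stx3 38.6 ± 1.24 and Cplx2 36.9 ± 1.97, whereas the remaining conventional members were low, from 10.5 ± 0.429 for Cplx1 to 0.728 ± 0.118 for Syn3, the lowest of the 46. In this order the ribbon members Cplx3, Slc17a7, Cplx4 and Stx3 ranked 2, 7, 9 and 15 of the 46.

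Ratios of counts per kb between related genes were taken within each library, where scaling cancels out. These pairs were picked after the single values had been seen, so they are given without a test. Stx3 per Stx1a was 11.7, 9.77 and 11.6 in the GFP libraries and 7.08, 7.20 and 8.38 in the Ezh2-Y726D libraries. Cplx3 and Cplx4 together took 75.04% ± 0.3998 of all complexin with GFP and 71.1% ± 0.594 with Ezh2-Y726D (SD, n = 3). Within the ribbon pair, Cplx4 per Cplx3 was 0.565, 0.594 and 0.625 with GFP and 0.377, 0.404 and 0.468 with Ezh2-Y726D, with no overlap.

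Slc17a7 per Slc17a6 was 4.92, 4.002 and 4.44 with GFP and 3.73, 3.42 and 3.85 with Ezh2-Y726D, with GFP replicate 2 near the Ezh2-Y726D values. Slc17a7 per summed synapsin was 4.47 ± 0.234 with GFP and 2.61 ± 0.222 with Ezh2-Y726D. Other pairs outside the 2 classes shifted too. Sv2a per Sv2b went from 2.19 ± 0.120 to 3.23 ± 0.0871, Unc13a per Unc13b from 0.523 ± 0.0402 to 0.731 ± 0.0252, and Syt1 per Syt2 from 27.8 ± 1.64 to 51.4 ± 8.52. In each of these ratios the groups did not overlap.

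**Figure D3:**
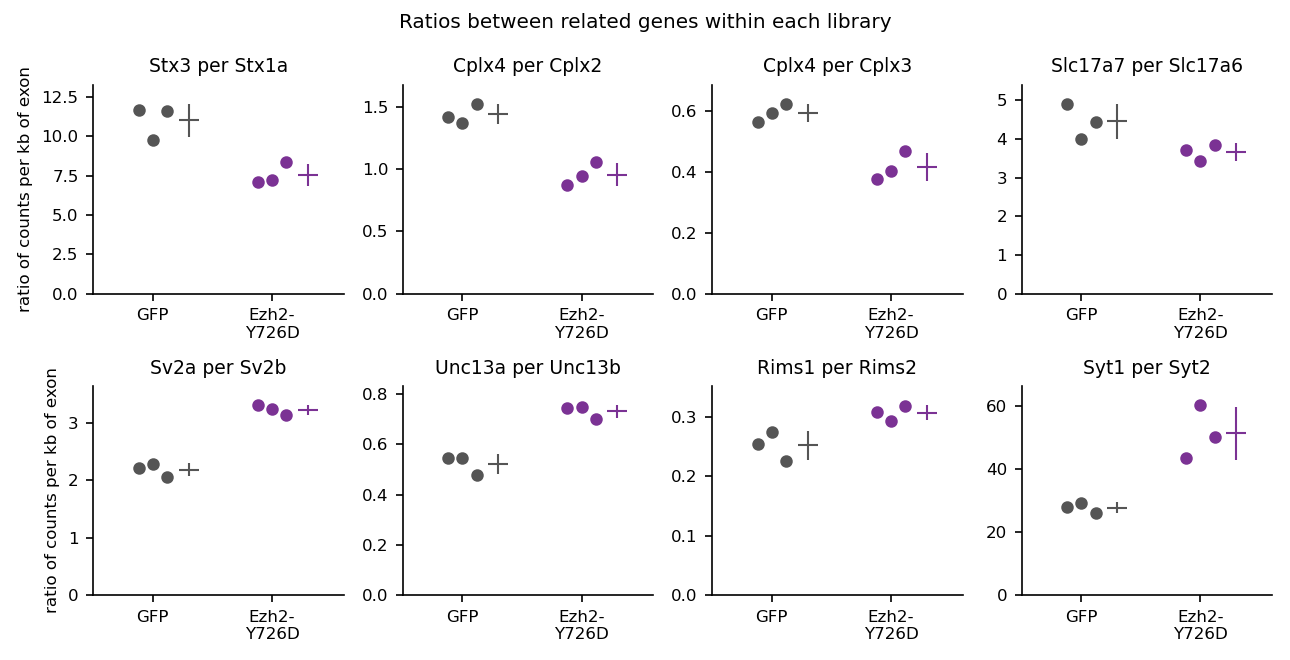
Ratios of counts per kb of exon between related genes within each library, on linear axes from 0, with GFP in grey, Ezh2-Y726D in purple, points for single libraries and a cross for the mean with a bar of 1 SD (n = 3). Stx3 per Stx1a falls from a mean of 11.0 to 7.55 and Syt1 per Syt2 goes from 27.8 to 51.4, and no ratio overlaps between groups.

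Beyond the members, a list of 74 further release machinery genes had 71 that could be tested, of which 38 were higher, 7 lower and 26 did not pass, with a median of 0.16. The 38 higher genes were 53.5% of those tested, beside 13.9% of all genes, and the 7 lower genes were 9.86%, beside 13.6% of all genes. The list held 5 DEGs, in a table where 8.02% of all genes were DEGs, and each was higher. They were Rph3a, a Rab3 effector, at 0.83 (adjusted P = 2.03e-13), Syt16 at 0.71, Slc32a1, the vesicular GABA and glycine transporter, at 0.70, Rab27b at 0.65 and Dnm3 at 0.59. Among the 7 lower genes were Syngr2 (-0.57, adjusted P = 2.12e-07), Rab3d (-0.31), Snap29 (-0.25) and Snap23 (-0.21, adjusted P = 0.0394). Under library totals Syngr2 was -0.06, while Rab3d, Snap29 and Snap23 turned to 0.20, 0.25 and 0.28. DESeq2 called 3 of the 71 lower and lost Rab3d (adjusted P = 0.288), Snap29 (0.0848), Snap23 (0.201) and Synj2 (0.173). Without any one library other than GFP replicate 3, 2 to 4 of the genes were called lower, and 6 were without GFP replicate 3. Of 6 further genes listed for the ribbon synapse, none was higher and 3 were lower. These were the genes of ribbon calcium channel subunits Cacna2d4 (-0.44, adjusted P = 1.65e-09) and Cacna1f (-0.34, adjusted P = 1.28e-06), and Ctbp2 (-0.11, adjusted P = 0.0325). Counts were per gene, so different transcripts of Ctbp2 were not told apart. Under library totals the 3 turned to 0.07, 0.17 and 0.39. Ctbp2 lost its call with DESeq2 (adjusted P = 0.0841) and whenever a single library was left out (up to 0.102). The summed CPM of the 6 genes was 774 to 789 with GFP and 660.4 to 679 with Ezh2-Y726D.

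Marker genes of the cells that form these synapses were measured in the same libraries, where 27.5% of all genes tested passed in either direction. All 11 amacrine markers that could be tested were higher (median 0.53), with a summed level of 1716 to 1872 CPM with GFP and 2616 to 2703 CPM with Ezh2-Y726D. Of 15 bipolar markers, 12 were lower and 1, Prkca, was higher (median -0.41), with sums of 1371 to 1382 and 1080 to 1113 CPM. Of 9 cone markers, 8 were lower (median -0.64, sums 462 to 486 and 298 to 315 CPM). The 11 rod markers comprised 3 higher and 1 lower (median 0.08, sums 6262 to 6491 and 6768 to 7045 CPM), and the 12 RGC markers 3 higher and 9 that did not pass (median -0.07, sums 475 to 491 and 473 to 513 CPM). Without Ezh2-Y726D replicate 3 only 1 rod marker was higher, and without GFP replicate 1 only 1 RGC marker. Under library totals the medians of amacrine, bipolar, cone, rod and RGC markers were 1.02, 0.09, -0.14, 0.58 and 0.43, so that of the bipolar markers changed sign. No listed marker was at 0 in all libraries, and Chat, a marker of starburst amacrine cells, was too low to test. The part of these cell types in the changes of the members was not tested.

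**Figure D4:**
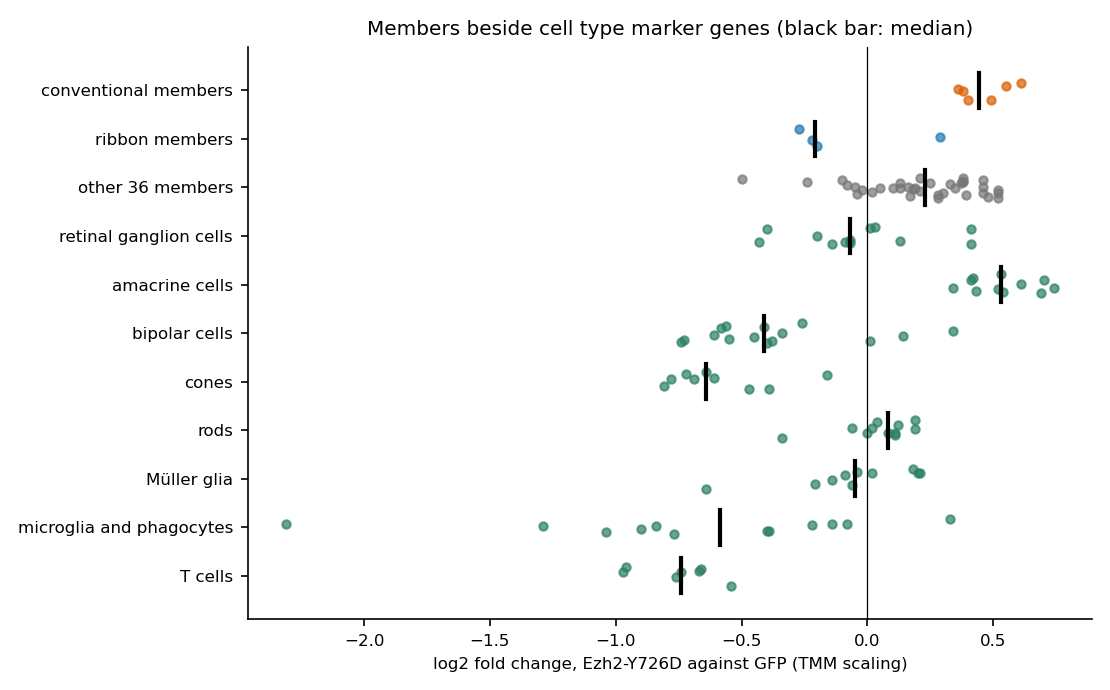
Log2 fold change between Ezh2-Y726D and GFP libraries under TMM scaling for the 46 members in 3 classes and for marker genes of 8 cell types, with a point for each gene and a black bar for the median of each row. The conventional members (median 0.45) and the amacrine markers (0.53) have medians above 0. The ribbon members (-0.21), bipolar markers (-0.41) and cone markers (-0.64) have medians below 0, and the rod (0.08) and RGC markers (-0.07) lie near 0. Under library totals that include the rRNA gene CT010467.1 these 7 medians are 0.94, 1.02, 0.30, 0.09, -0.14, 0.58 and 0.43 in the same order.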

How the data were processed

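RNA-Seq libraries of CD90.2-sorted retinal cells were analysed, 3 with AAV2-GFP and 3 with AAV2-Ezh2-Y726D, grouped by the sample labels. The authors deposited raw read counts per gene, not normalized. The submitters' processing notes name STAR 2.7.0d and GRCm38, and the counting tool, annotation and use of strand are not given in the sources used here, so overlapping genes are less certain. Of 32371 identifiers, 32325 had a symbol and 32342 were found in GENCODE vM21, which gave coordinates and exon lengths. Promoters came from RefSeq (GRCm38.p6).

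The counts were tested with edgeR 4.0.16 in R 4.3.3 (quasi-likelihood, TMM factors 0.647 to 1.31, filterByExpr with a minimum of 10 counts and a total of 15, Benjamini-Hochberg adjustment over 18138 genes, 2-sided). The common biological coefficient of variation was 0.0442. A call was an adjusted P under 0.05, and a DEG also had a fold change over 1.5, the thresholds of the study. SEs were the log2 fold change divided by the root of F. Total counts set the precision of scarce genes, the smallest member count in any library being 30. Libraries of the same group differed less from each other than libraries of different groups did (chi-square per degree of freedom 1.49 to 3.03 against 7.45 to 14.0), and no library was a duplicate.

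Per-library values and full statistics are given for every ribbon and conventional member, Snap25, Syt1, Vamp2, Syp, Bsn, Pclo, Dnm1, member DEGs and the 5 highest and 5 lowest log2 fold changes among called members (only 4 were called lower). Members, classes, marker lists and tests were chosen with earlier results of these data known. Alternatives were DESeq2 1.42.0, RLE size factors, library totals with and without CT010467.1, no low-count filter, a minimum of 10 counts in each library, a block for the replicate number, thinning to the shallowest library, and leaving out each library or GFP replicates 2 and 3. Leaving out GFP replicates 2 and 3 keeps a single GFP library, so only effect sizes are given for it. On simulated counts for this comparison (18138 genes, 200 changed by a log2 fold change of 1) edgeR called 172 of the 200 and 9 unchanged genes. The members changed less, from -0.50 to 0.61, and 27.5% of all genes passed. Recovery and false calls under such conditions were not simulated.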

Additional observations from a re-analysis of the deposited data

How the results depend on the processing

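The members' counts of 32 higher and 4 lower were 30 and 4 with DESeq2, 26 and 4 with thinned counts, 31 and 5 with totals without CT010467.1, and 33 and 5 with the replicate number as a block. Same-numbered libraries deviated together only weakly (r from 0.0238 to 0.0723, although each of the 6 correlated best with its own number), so they were taken to share a number only, and over all genes the block called 2675 higher and 2547 lower. Library totals left 0 higher and 0 lower among members, ribbon members, conventional members and other release genes (46 and 19 over all genes) and moved the medians to 0.78, 0.30, 0.94 and 0.67 (0.49 over all genes). On that scale Stx3, Cplx4 and Slc17a7 turned to 0.31, 0.29 and 0.23, and 33 member calls were lost with no sign change. With a fold change over 1.5 as well, 1 member was higher and 0 lower, ribbon members had 0 and 0, conventional members 1 higher, other release genes 5 and 0, and all genes 457 and 998. The ribbon median was -0.24 with thinned counts, -0.17 without GFP replicates 2 and 3 and -0.25 to -0.16 when single libraries were left out. Leaving out single libraries gave 27 to 32 members higher and 4 lower, 4 to 6 conventional members higher, and 2 to 6 other release genes lower. That last count was 3 with DESeq2 and with no filter, and 4 with thinned counts. Over all genes the median was -0.04 with DESeq2, 0.03 with no filter and -0.02 with totals without CT010467.1, and thinning called 1660 higher. Calls were gained for Sv2b with totals without CT010467.1 (adjusted P = 0.0248) and the block (0.0228). Unc13c gained a call with the block (0.035) and with at least 10 counts per library (0.0359), and Doc2b with at least 10 counts per library (0.0492, edgeR). At the depth of the shallowest library, Stx1a, Rims1, Erc2, Syt5, Syt9 and Nsf were no longer called. The shift under library totals came from CT010467.1, without which the medians of members, ribbon and conventional members were 0.26, -0.23 and 0.42. The cause of the other shifts was not tested, apart from the fewer libraries or counts that leaving out and thinning leave.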

Other observations

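Marker genes of other cell classes that the sort could hold are given as values with no explanation. All 7 T cell markers were lower with Ezh2-Y726D (median -0.74 on the log2 scale, summed CPM 116 to 120.2 with GFP and 67.7 to 74.3 with Ezh2-Y726D). Of 12 markers of microglia and phagocytes, 9 were lower and 1 was higher (median -0.58, summed CPM 1090 to 1205 and 618 to 721). Pericyte markers were lower in 5 of 6 genes (median -0.43, and 0.08 under library totals that include CT010467.1). Endothelial markers were lower in 2 of 6 (median -0.15, and 0.32 under library totals), in 1 with DESeq2, in 0 without Ezh2-Y726D replicate 2 and in 1 without Ezh2-Y726D replicate 3, GFP replicate 1 or GFP replicate 3. Of the horizontal cell markers, none of 4 passed the edgeR test (median 0.03, and 0.50 under library totals). The 10 Müller glia markers had 3 genes higher and 3 lower (median -0.05, and 0.46 under library totals). The medians of T cell and microglia markers stayed below 0 on that scale, at -0.25 and -0.08.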
